A study of Mus musculus with 4 samples.

Results

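The constitutive proteasome is described here through the 34 genes that encode its standard subunits, taken from the 27179 gene rows of a count table. They are Psma1 to Psma7, Psmb1 to Psmb7, Psmc1 to Psmc6 and the 14 numbered Psmd genes, chosen by symbol alone, and the immunoproteasome genes Psmb8, Psmb9 and Psmb10 were left out. RNA had been sequenced from mAEC, a line of murine aortic endothelial cells, which form the lining of the largest artery. The control group was kept in normal medium. The conditioned medium group was exposed to supernatant taken from macrophages that carried TNFα, an inflammatory cytokine, and CD68, a macrophage protein. Each group held 2 libraries, described by the submitters as biological replicates, and p-values measure the spread between these libraries, which may be technical. No genotype or transgene is named for either group, and neither strain nor exposure time nor dose of supernatant is stated in the labels.

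The proteasome degrades proteins that carry ubiquitin chains. Its core particle is a barrel of stacked rings, in which the α subunits form the gated ends and the β subunits hold the protease sites in the interior. A regulatory particle caps the barrel: its base contains a ring of ATPases that unfold the substrate and thread it inward, and its lid removes the ubiquitin chain. The subunits are made in defined proportions, and their genes are often expressed in a coordinated way. The transcription factor NFE2L1 raises them together when proteasome activity is short, by binding antioxidant response elements in their promoters.

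Of the 34 genes, 14 encode the core particle (7 α and 7 β subunits), 9 the base (6 ATPases, Psmc1 to Psmc6, and Psmd1, Psmd2 and Psmd4) and 8 the lid (Psmd3, Psmd6, Psmd7, Psmd8, Psmd11, Psmd12, Psmd13 and Psmd14). The other 3, Psmd5, Psmd9 and Psmd10, encode chaperones that help to assemble the base and leave it before the particle is complete. The genes are scattered over 15 chromosomes, with at most 6 on a single chromosome, chromosome 11. RefSeq promoter entries (assembly GRCm38.p6, which is mm10) matched 28 of the 34, with 30 start sites. Psmb1, Psmb2, Psmb7, Psmc3, Psmd3 and Psmd7 were without an entry.

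The 3 promoters below belong to the gene that rose in conditioned medium (Psmb5), a catalytic partner that did not pass the test (Psmb6) and the gene with the largest fall (Psmd14). Each is written 5′ to 3′ on the gene's own strand and stops before the RefSeq gene record and before any exon of the gene in the GENCODE M21 annotation. Capitals mark matches to the antioxidant response element TGACNNNGC or to CCAAT, each searched on both strands and counted separately, so that matches could overlap.
Psmb5, chr14:54618023-54618245, minus strand: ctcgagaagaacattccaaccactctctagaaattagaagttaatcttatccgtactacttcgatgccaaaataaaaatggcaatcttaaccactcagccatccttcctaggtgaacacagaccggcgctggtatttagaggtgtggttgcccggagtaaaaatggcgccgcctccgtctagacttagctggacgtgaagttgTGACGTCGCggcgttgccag
Psmb6, chr11:70525107-70525323, plus strand: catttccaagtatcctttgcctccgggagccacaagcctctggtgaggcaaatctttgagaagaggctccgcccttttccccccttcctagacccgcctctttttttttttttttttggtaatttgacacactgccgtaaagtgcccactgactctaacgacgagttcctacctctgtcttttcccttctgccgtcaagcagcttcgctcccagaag
Psmd14, chr2:61711444-61711693, plus strand: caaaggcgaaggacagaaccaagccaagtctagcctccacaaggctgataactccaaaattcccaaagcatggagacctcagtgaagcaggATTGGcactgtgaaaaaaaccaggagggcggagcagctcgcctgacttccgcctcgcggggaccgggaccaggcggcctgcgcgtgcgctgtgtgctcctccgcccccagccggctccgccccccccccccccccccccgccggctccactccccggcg

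In the 250 bases before the start, 5 of the 30 member promoters (16.7%) held TGACNNNGC, against 10.2% of 32851 promoters of all genes. These 5 belonged to Psmb5, Psmb6, Psmc6, Psmd9 and Psmd12. The Psmb5 match, TGACGTCGC, began 47 bases before the RefSeq start. The Psmb6 match, TGACGGAGC, began 9 bases before the start in the promoter table. It lies inside the longer RefSeq gene record, which begins at chr11:70525324, and is therefore outside the stretch printed above. Of the 30 windows, 8 reached into the gene record in this way. CCAAT was found in 36.7% of the member promoters and 33.8% of all promoters, GGGCGG in 56.7% and 32.7%, and TATAA in 10% and 22.8%. A match is a description of the letters and was not tied to any level measured here. Of the 5 genes with the element, Psmb5 was called and Psmb6, Psmc6, Psmd9 and Psmd12 were not.

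The deposited counts summed to between 13815695 and 18005840 per library. The endothelial genes Pecam1 and Cdh5 had between 27881 and 43457 counts in every library, while Cldn5, which encodes an endothelial tight junction protein, had at most 1 count and Vwf, which encodes von Willebrand factor, between 33 and 61. Of 10 macrophage markers, Adgre1 and Mrc1 had 0 counts in all libraries and Csf1r, Ptprc, Itgam, Fcgr1 and Tnf at most 3. Cd14 had 90 to 117 counts per library and Lyz2 59 to 84. The macrophage list summed to 227 and 262 CPM, the count scaled to library size, in control and 253 and 261 CPM in conditioned medium, nearly all of it from Cd68. The 12 endothelial markers summed to 7147 to 7501 CPM. The 6 smooth muscle markers summed to 226 to 245 CPM, nearly all of it from Smtn, which had 3312 to 4269 counts. Des had 29 to 40 counts and Tagln 20 to 26, while Myh11, Cnn1 and Acta2 had at most 10. Among the 6 fibroblast markers, Lum and Col1a2 had 0 counts and Dcn and Col1a1 at most 11, while Fbln1 had 60 to 99 and Pdgfra 374 to 578. This fibroblast list summed to 29.4 and 32.4 CPM in control. In conditioned medium the fibroblast list summed to 38.5 and 38.4 CPM. Among the 11 endothelial markers tested 2 rose and 2 fell: Nos3 and Eng rose by 0.35 and 0.32 on the log2 scale and Kdr and Emcn fell by 0.16 and 0.13 (edgeR adjusted p = 1.13e-05, 1.11e-04, 0.0123 and 0.0298). These 4 are 36.4% of the endothelial markers tested, against 16.8% of all genes tested. The fibroblast marker Pdgfra rose by 0.28 (edgeR adjusted p = 0.0171). Cd68, at 220 and 248 CPM in control and 241 and 249 CPM in conditioned medium, and the smooth muscle marker Smtn were not called (edgeR adjusted p = 0.429 and 0.469). Leaving out conditioned medium library 1 or 2 ended the call of Kdr (adjusted p = 0.239 and 0.215) and of Pdgfra (adjusted p = 0.121 and 0.192), and Pdgfra was also not called without control library 1 (adjusted p = 0.0657) or in DESeq2 (adjusted p = 0.283). The control libraries differed from each other by more than counting noise allows (chi-square of 4.70 per degree of freedom, against 1.51 for the conditioned medium pair).

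All 34 proteasome genes passed the filter on low counts, with between 154 and 3391 counts per library, so none entered the test through one group only. In conditioned medium Psmb5, the β subunit with the chymotrypsin-like protease site, rose 1.23-fold. Psmd14, the lid enzyme that cuts off ubiquitin chains, fell 1.16-fold and Psmc3, an ATPase of the base, fell 1.11-fold. The other 31 genes did not pass the test (edgeR quasi-likelihood test, two-sided, Benjamini-Hochberg adjusted p under 0.05 over 13897 genes). Thus 3 of 34 members were called, 8.82%, where the same test called 16.8% of all genes tested. By direction, 1 of 34 was higher (2.94%, against 8.53% of all genes) and 2 were lower (5.88%, against 8.23%). The levels of the 2 groups did not overlap in 16 of the 34 (47.1%), against 57.2% of all genes tested, and 7 lay at an unadjusted p under 0.05, against 29.5% of all genes.

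**Figure D1:**
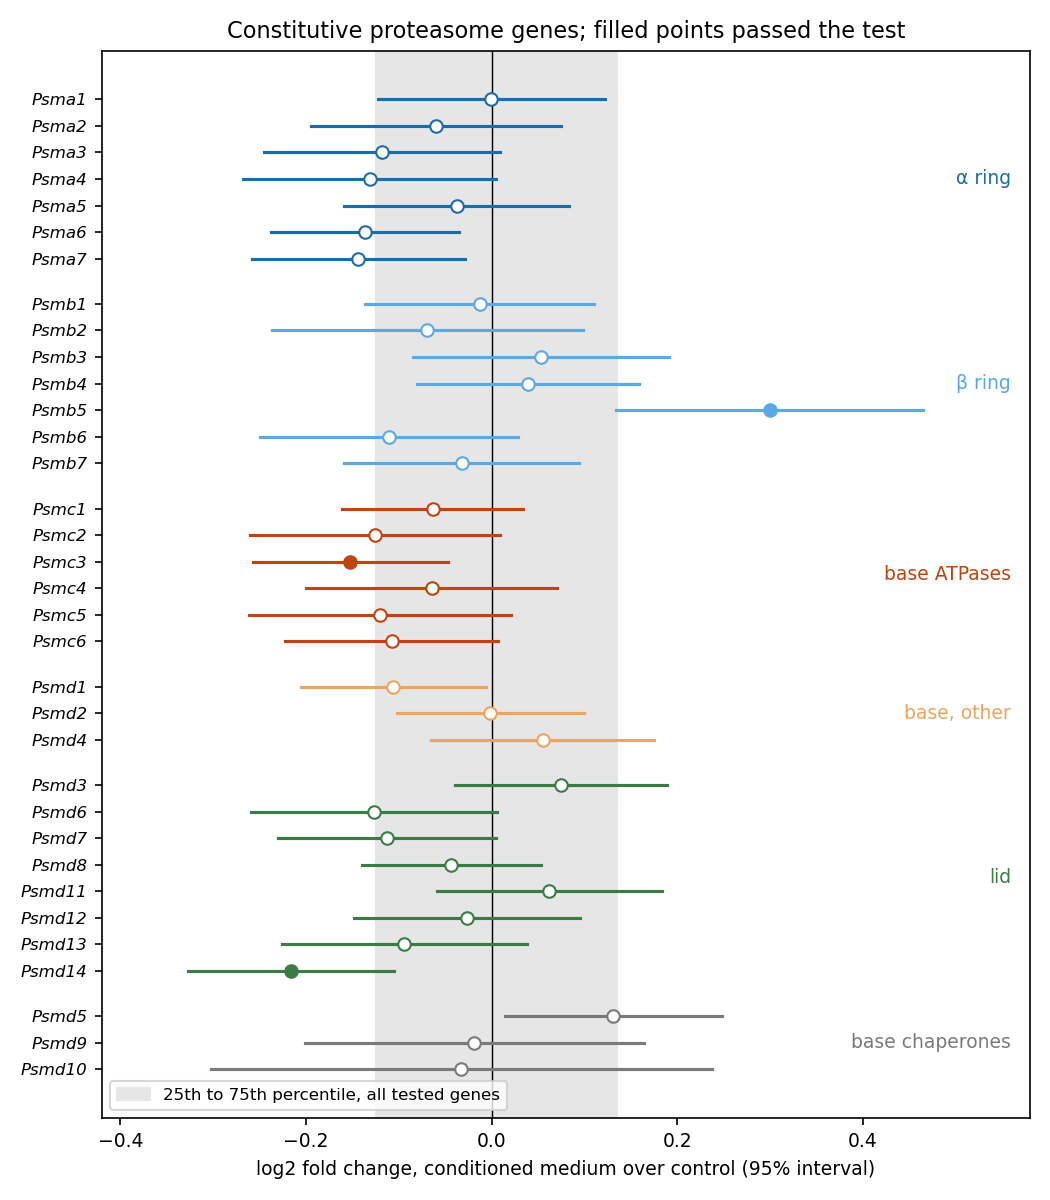
Log2 fold change of each of the 34 proteasome genes, conditioned medium over control (x axis), with its 95% interval (line), by sub-complex. Filled points passed the test (Psmb5, Psmc3 and Psmd14); the grey band spans the 25th to the 75th percentile of all 13897 tested genes, from -0.12 to 0.14.

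The differences were small and bounded. Log2 fold changes of the members ran from -0.22 to 0.30, with a median of -0.06 and an SD of 0.098, beside a median of 0.00037 and an SD of 0.29 over all genes tested. The median size of the change, regardless of sign, was 0.07 for the members and 0.13 for all genes. All genes tested include those with lower counts than any member, whose estimates vary more, and were not matched to the members for level. The 95% interval included 0 for 27 of the 34, and its farthest bound among all members was that of Psmb5, 0.47 on the log2 scale or 1.38-fold. Among the 31 genes not called, no bound of an interval lay farther than 0.30 from 0 on the log2 scale. In these bulk samples fewer cells of a type and less RNA per cell cannot be told apart.

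Estimates below 0 were more common than estimates above it, 27 of 34 against 7. Control library 1 stood apart from the other 3 in these genes: it held the highest level of the 4 libraries in 26 of 34 members (76.5%), while it did so in 27.9% of all genes tested. Summed over the 34 genes, the level was 2940 CPM in control library 1, 2742 CPM in control library 2, and 2734 and 2739 CPM in the conditioned medium libraries. The second control library was therefore level with the treated pair. Control library 1 was above control library 2 in 29 of 34 members, in 7 of 7 α subunits and in 6 of 6 base ATPases, against 49.2% of all genes.

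**Figure D2:**
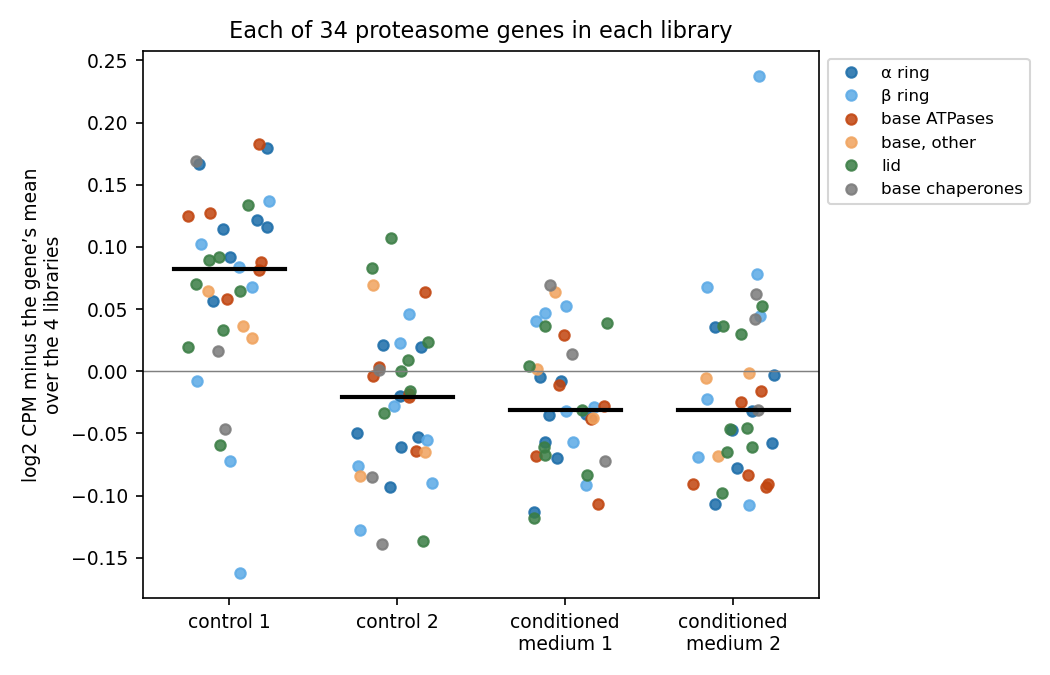
Log2 CPM of each proteasome gene minus that gene's mean over the 4 libraries (y axis), by library (x axis), coloured by sub-complex; black lines are medians over the 34 genes. The median is 0.08 in control library 1 and -0.02, -0.03 and -0.03 in the other 3.

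Leaving out a control library moved the whole set more than leaving out a conditioned medium library. The median over the 34 members, -0.06 with all 4 libraries, was -0.07 without conditioned medium library 1 and -0.07 without conditioned medium library 2. Of the 34 estimates, 23 and 25 then lay below 0. Without control library 1 the median over the 34 members was -0.0016 and 17 of the 34 estimates lay below 0. Psmb5 and Psmd11 were then called higher and Psmd14 lower, where 8.72% of all genes were called higher and 8.37% lower. Without control library 2 the median was -0.10, Psmb5 was called higher (10.5% of all genes under that fit) and 8 members were called lower (11.4% of all genes under that fit): Psma3, Psma4, Psma6, Psma7, Psmc2, Psmc3, Psmc6 and Psmd14. Without conditioned medium library 1 only Psmb5 was called among the 34, and without conditioned medium library 2 the edgeR test called 0 of them, with 1 at an unadjusted p under 0.05. Under those fits 5.71% and 4.03% of all genes were called. DESeq2, run on all 4 libraries, also called 0 of the 34, with 2 at an unadjusted p under 0.05, and 6.72% of all genes, while limma-voom called the same 3 members as edgeR (16.7% of all genes). The replicate block also called these 3 (19.2% of all genes). Only Psmd14 was called lower under upper-quartile scaling (7.09% of all genes lower), library totals (7.28%), no filter (4.61%) or thinned counts (7.5%), and a robust spread called Psma6 lower besides Psmc3 and Psmd14 (8.92% of all genes lower).

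The 3 sub-complexes differed little in their medians. The median log2 fold change was -0.05 over the 14 core subunits, -0.11 over the 9 base subunits and -0.07 over the 8 lid subunits, with no test between them. Calls numbered 1 higher and 0 lower in the core, 0 higher and 1 lower in the base, and 0 higher and 1 lower in the lid. They make up 7.14%, 11.1% and 12.5% of the core, base and lid genes, beside 16.8% of all genes tested. Each share rests on 1 call, so no shortage of calls in a sub-complex can be read from it. Without control library 1 the 3 medians were 0.02, -0.03 and -0.04, and without control library 2 they were -0.11, -0.11 and -0.08, so the order of core, base and lid changed with the control library used.

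**Figure D3:**
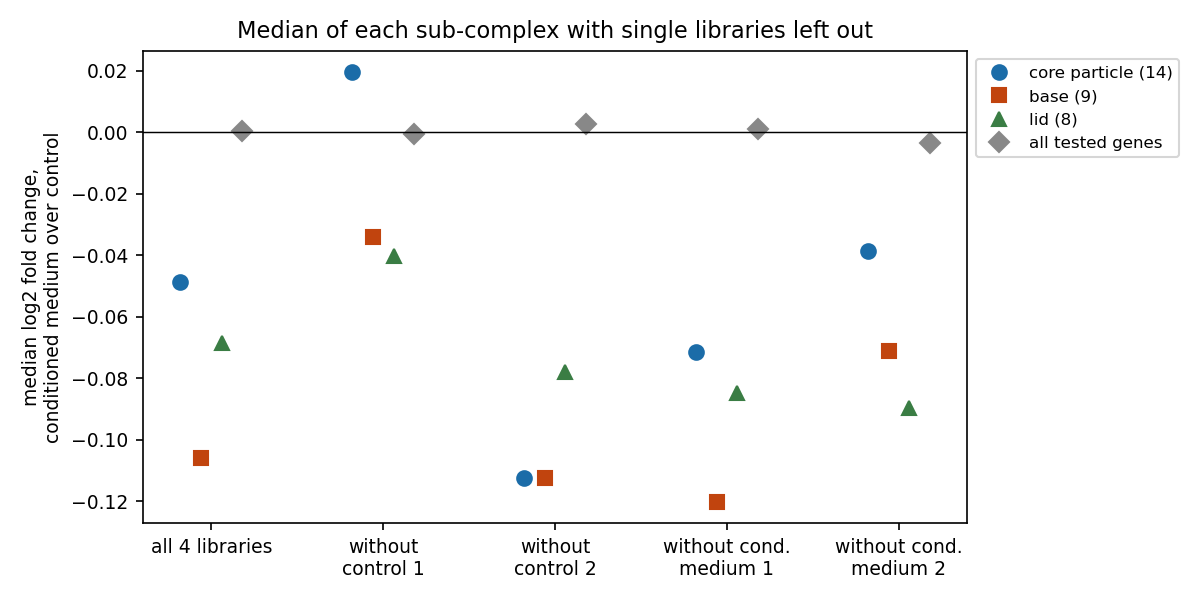
Median log2 fold change (y axis) of the core, base and lid genes and of all tested genes, with all 4 libraries and with single libraries left out (x axis). The core median runs from -0.11 to 0.02, the base median from -0.12 to -0.03 and the lid median from -0.09 to -0.04, while that of all genes stays near 0.

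In the α ring, which opens and closes the entrance to the barrel, edgeR called 0 of 7 genes, 2 lay at an unadjusted p under 0.05, and DESeq2 and limma-voom also called 0. All 7 estimates were at or below 0, with a median of -0.12. Psma6 had the smallest p of the ring, with 154 and 144 CPM in control against 136 and 135 CPM in conditioned medium. Its groups did not overlap, and its log2 fold change was -0.14 ± 0.05 (SE; edgeR adjusted p = 0.0599). It was called with a robust estimate of the spread (adjusted p = 0.0426) and without control library 2 (adjusted p = 0.00217). Psma7 stood at 94.8 and 88.3 CPM in control and 85.1 and 80.9 CPM in conditioned medium (edgeR adjusted p = 0.0808). Psma1, at 106 and 93.3 CPM against 97.2 and 102 CPM, had a log2 fold change of 0.00 with a 95% interval from -0.12 to 0.12. The other 4 estimates, for Psma2, Psma3, Psma4 and Psma5, lay between -0.13 and -0.04.

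In the β ring, 1 of 7 genes was called (14.3%, against 16.8% of all genes tested). Psmb5 had 28.9 and 29.6 CPM in the control libraries and 33.5 and 38.1 CPM in the conditioned medium libraries. Both treated values lay above both controls, and the second treated library was the highest. Its mean level was 29.2 ± 0.504 CPM in control and 35.8 ± 3.25 CPM in conditioned medium (SD, n = 2). On the log2 scale the difference was 0.30 ± 0.08 (SE), with an edgeR adjusted p of 0.0122. Without conditioned medium library 2 it was 0.20 and not called (adjusted p = 0.320), and DESeq2 did not call it either (adjusted p = 0.219). Over its 15 alternatives the adjusted p ran from 0.00296 to 0.320, and the call was kept under 13 of them. These 13 include the sum with the Mir686 row described below, which may add reads that the Psmb5 row already held.

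The other 2 catalytic β subunits were not called. Psmb6, which carries the caspase-like site, had 43.9 and 43.2 CPM in control and 39.3 and 41.2 CPM in conditioned medium. These values did not overlap and pointed the opposite way from Psmb5, with a log2 fold change of -0.11 ± 0.07 that was not called (edgeR adjusted p = 0.285). Psmb7, which carries the trypsin-like site, had 76.3 and 69.3 CPM against 74.1 and 68.7 CPM. Its groups overlapped (log2 fold change -0.03 ± 0.06; edgeR adjusted p = 0.774). The non-catalytic β subunits Psmb1, Psmb2, Psmb3 and Psmb4 lay between -0.07 and 0.05 and were not called.

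**Figure D4:**
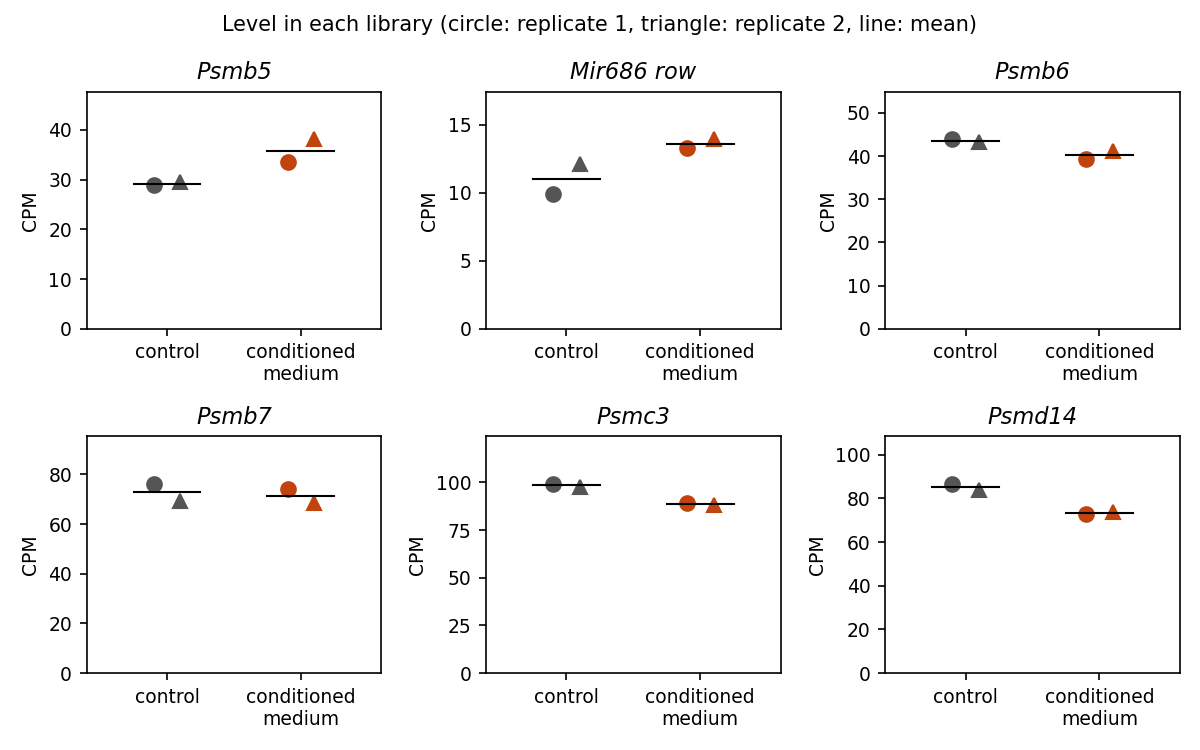
CPM in each library (y axis, from 0) of the 3 called genes, the catalytic partners Psmb6 and Psmb7, and the Mir686 row, in control and conditioned medium (x axis); lines are means of 2 libraries. Psmb5 rises from 29.2 to 35.8 CPM, and the groups of Psmc3 and Psmd14 are separated by more than the spread within them.

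The row of Psmb5 overlaps another row of the table. The annotated microRNA gene Mir686 lies at chr14:54616677-54616785 in mm10, wholly inside the second exon of Psmb5 (chr14:54616515-54616821) and on the same strand. Its 109-base hairpin was found letter for letter at bases 266 to 374 of the 899-base Psmb5 transcript in GENCODE M21. It is shown here as DNA because it is at the same time protein-coding sequence of Psmb5, with the mature microRNA in capitals.
Mir686 hairpin, minus strand: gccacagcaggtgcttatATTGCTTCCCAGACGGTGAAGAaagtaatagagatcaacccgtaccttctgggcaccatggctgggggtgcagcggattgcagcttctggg
The Mir686 row held 146 and 177 counts in control and 184 and 251 counts in conditioned medium, so reads from this stretch had been entered under the microRNA. Whether they were also counted for Psmb5 is not stated in any source used. In CPM the row went from 9.90 and 12.1 to 13.3 and 13.9, a log2 fold change of 0.31 ± 0.13 that was not called (edgeR adjusted p = 0.100). With both rows summed, an alternative added after the data were seen, Psmb5 was at 0.30 and stayed called (edgeR adjusted p = 0.00501). If the Mir686 reads were also counted for Psmb5, the sum adds reads that its row already held. The summed fit cannot then be read as a check on the call, because which case holds is not known.

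Immunoproteasome subunits, which replace the 3 catalytic β subunits in cells exposed to interferon, were expressed at low levels and none was called. Psmb8, the counterpart of Psmb5, had 12.9 and 11.0 CPM in control and 12.3 and 11.8 CPM in conditioned medium (edgeR adjusted p = 0.975). Psmb9, the counterpart of Psmb6, had 4.0 and 6.16 CPM against 4.12 and 4.16 CPM (edgeR adjusted p = 0.387). Psmb10, the counterpart of Psmb7, had 6.85 and 6.03 CPM against 5.13 and 6.21 CPM (edgeR adjusted p = 0.56). The groups overlapped for all 3 genes. The 95% intervals of their log2 fold changes ran from -0.25 to 0.27 for Psmb8, from -0.74 to 0.15 for Psmb9 and from -0.53 to 0.19 for Psmb10. The counts by DESeq2, limma-voom and an unadjusted p under 0.05 were also 0. Tissue-restricted Psmb11 of the thymus and Psma8 of the testis had at most 1 count in any library.

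Per transcript length, the constitutive form of each catalytic pair was the more abundant. On the FPKM scale (CPM per kilobase of transcript), Psmb8 made up 19.8% and 17.0% of the sum of Psmb5 and Psmb8 in control and 16.8% and 14.6% in conditioned medium. Psmb9 made up 5.11% and 7.76% of the sum with Psmb6 in control and 5.82% and 5.62% in conditioned medium, and Psmb10 made up 7.35% and 7.14% of the sum with Psmb7 in control and 5.77% and 7.41% in conditioned medium. The control and treated shares overlapped for the last 2 pairs. For Psmb8 they did not, the control share of 17.0% lying just above the treated share of 16.8%, a gap smaller than the spread within either group. If the reads entered under Mir686 were not also counted for Psmb5, the Psmb8 shares are too high.

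In the base, 1 of the 6 ATPases was called (16.7%, against 16.8% of all genes tested). Psmc3 had 99.4 and 97.7 CPM in control and 89.2 and 88.2 CPM in conditioned medium. The 2 groups were each tight and did not overlap (98.5 ± 1.20 against 88.7 ± 0.694 CPM, mean ± SD, n = 2). Its log2 fold change was -0.15 ± 0.05 (SE; edgeR adjusted p = 0.0438), just inside the threshold, and 8 of its 15 alternatives ended the call (adjusted p from 0.0254 to 0.352). The call was lost without control library 1 (adjusted p = 0.0849) and without conditioned medium library 1 or 2 (adjusted p = 0.226 and 0.305). It was also lost in DESeq2 and under upper-quartile or total-count scaling (adjusted p = 0.352, 0.0680 and 0.0632). Psmc3 shares 215 bases of exon with Slc39a13, a zinc transporter gene on the opposite strand, and the kit did not mark strand. Slc39a13 had 24.8 and 24.0 CPM in control and 30.1 and 27.0 CPM in conditioned medium, in the opposite direction to Psmc3. This difference was not called (edgeR adjusted p = 0.0813).

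The other 5 ATPases had estimates between -0.13 and -0.06. Psmc1 had the highest count of the 6, with 198 and 185 CPM in control and 183 and 184 CPM in conditioned medium (log2 fold change -0.06 ± 0.05; edgeR adjusted p = 0.400). Of the 3 other base subunits edgeR, DESeq2 and limma-voom called 0, with 1 at an unadjusted p under 0.05 in edgeR. Psmd1, a large scaffold of the base, had 129 and 132 CPM in control and 123 and 120 CPM in conditioned medium, without overlap (log2 fold change -0.11 ± 0.05; edgeR adjusted p = 0.140). Psmd2, the scaffold that receives shuttle factors, had 197 and 180 CPM against 189 and 188 CPM, and Psmd4, a ubiquitin receptor, had 73.7 and 68.3 CPM against 75.7 and 72.1 CPM. Both overlapped between the groups (edgeR adjusted p = 0.993 and 0.575).

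In the lid, 1 of 8 genes was called (12.5%, against 16.8% of all genes tested). Psmd14 had 86.8 and 83.8 CPM in control and 72.9 and 73.9 CPM in conditioned medium. Both treated libraries lay below both controls by more than the spread within either group (85.3 ± 2.12 against 73.4 ± 0.726 CPM, mean ± SD, n = 2). The log2 difference, -0.22 ± 0.05 (SE), had an edgeR adjusted p of 0.00737 and was the largest fall among the 34. At -0.19 without control library 1 it kept its call (adjusted p from 0.00105 to 0.129 over the alternatives). It lost the call without conditioned medium library 1 or 2, where the estimate was -0.21 and -0.23. DESeq2 did not call it either, at an estimate of -0.22 (adjusted p = 0.129). Psmd14 spans chr2:61711694-61800376 in mm10.

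Psmd7, the catalytically inactive partner of Psmd14 in the lid, had 71.6 and 68.3 CPM in control and 64.2 and 65.2 CPM in conditioned medium. The groups did not overlap, but the difference was not called (log2 fold change -0.11 ± 0.06; edgeR adjusted p = 0.188). Psmd11, a lid scaffold, had 117 and 101 CPM in control and 114 CPM in each conditioned medium library. The 2 controls lay on either side of the treated values, so the sign depended on the control: its log2 fold change was 0.06 with all libraries, 0.17 and called without control library 1 (adjusted p = 0.0189) and -0.04 without control library 2. The remaining 5 lid genes, Psmd3, Psmd6, Psmd8, Psmd12 and Psmd13, ranged from -0.13 to 0.08 and were not called.

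Among the 3 base assembly chaperones edgeR called 0, with 1 at an unadjusted p under 0.05, and DESeq2 and limma-voom called 0. That 1 was Psmd5, with 63.0 and 61.4 CPM in control and 68.3 and 67.9 CPM in conditioned medium (log2 fold change 0.13 ± 0.06; edgeR adjusted p = 0.119). Its groups did not overlap. Psmd9 had between 21.9 and 22.6 CPM in all libraries, and Psmd10, also known as gankyrin, between 10.6 and 13.1 CPM. Psmd10 was the least expressed of the 34 and had the widest interval of those not called, from -0.30 to 0.24.

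Levels per transcript length varied several-fold between subunits of the same ring. In control cells the median FPKM was 70.9 in the α ring, 56.4 in the β ring, 52.9 over the base ATPases, 54.5 over the other base subunits, 40.8 in the lid and 8.67 over the chaperones. Conditioned medium gave 65.2, 57.8, 48.9, 56.7, 40.4 and 8.57. The β ring was the most even of the rings, its highest member (Psmb1, 64.7 FPKM) standing 1.99-fold above its lowest (Psmb5, 32.5 FPKM), whereas the α ring ran 8.03-fold from Psma2 (20.3 FPKM) to Psma6 (163 FPKM). By its own row Psmb5 was thus the lowest β subunit in control, and in conditioned medium, at 39.8 FPKM, it remained below Psmb2 at 42.8 FPKM. If the reads entered under Mir686 were not also counted for Psmb5, its row places it too low. Psmc1 (121 FPKM) stood 3.42-fold above Psmc4 among the ATPases and Psmd8 (104 FPKM) 4.06-fold above Psmd13 in the lid. The rank order of the 34 genes was nearly the same in both groups (Spearman's rho 0.984 across genes of the same libraries, a description). These levels rest on annotated transcript lengths, and a gene whose shorter transcript is the one in use would be placed too low.

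**Figure D5:**
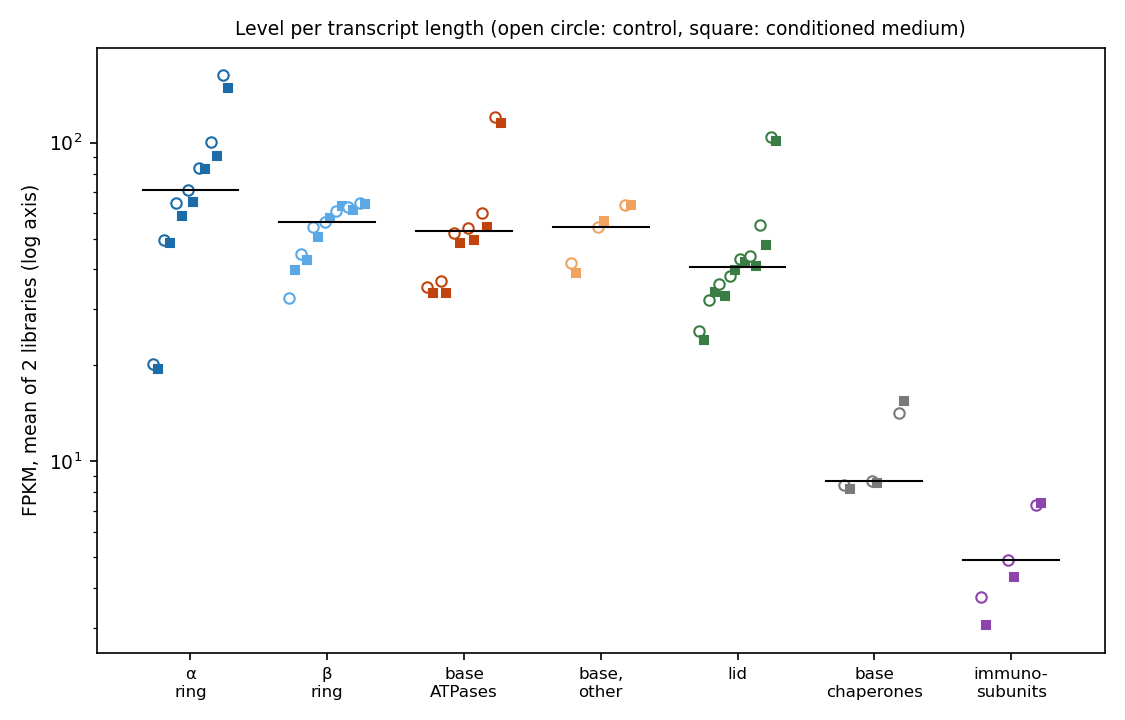
FPKM (y axis, log scale, mean of 2 libraries) of each proteasome gene by sub-complex, and of the 3 immunosubunits, in control (open circles) and conditioned medium (squares); lines are control medians. The chaperones and the immunosubunits lie below all ring, base and lid genes, and paired symbols are close together.

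A pair of subunits fall outside the numbered series. Adrm1, a ubiquitin receptor of the base, had 35.04 and 31.4 CPM in control and 32.1 and 33 CPM in conditioned medium. Sem1, a small lid subunit, had 47.6 and 38.4 CPM against 39.6 and 44.6 CPM. Neither was called (edgeR adjusted p = 0.851 and 0.888; 0 of 2 at an unadjusted p under 0.05, and 0 by DESeq2 and limma-voom). Of the 5 chaperones that assemble the core particle 0 were called by edgeR, DESeq2 or limma-voom, and 0 lay at an unadjusted p under 0.05. Pomp, which guides β subunits into place, had 234 and 204 CPM against 231 and 232 CPM (edgeR adjusted p = 0.328), and was called higher without control library 1 (log2 fold change 0.18; adjusted p = 4.87e-04) where its low control, library 2, stood alone. Psmg2 had 7.46 and 8.29 CPM against 6.21 and 6.43 CPM (edgeR adjusted p = 0.181).

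Of 5 genes for alternative caps and their inhibitor, 1 fell, 0 rose and 4 were not called, with a median of -0.15. That is 20% called, against 16.8% of all genes tested in either direction and 8.23% lower. The gene that fell was Psme2, which forms with Psme1 an activator that opens the core particle without ubiquitin. It had 39.0 and 39.9 CPM in control and 33 and 32.1 CPM in conditioned medium, and the groups did not overlap (log2 fold change -0.28 ± 0.07; edgeR adjusted p = 0.00924). Psme1 had 73.3 and 77.0 CPM against 68.5 and 66.7 CPM (log2 fold change -0.15 ± 0.06; edgeR adjusted p = 0.0633), and was called without control library 1 (adjusted p = 0.0237). Psmf1, an inhibitor of the core particle, had 27.7 and 28.1 CPM against 24.98 and 25.3 CPM (edgeR adjusted p = 0.225). Psme2 lost its call without conditioned medium library 1 or 2 (adjusted p = 0.0821 and 0.168) and in DESeq2 (adjusted p = 0.194).

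Regulators of proteasome gene expression were examined next. Of 11 genes for NFE2L1, its relative NFE2L2 and some of the factors that process or degrade them, 2 fell and 0 rose, with a median of -0.03. These 2 are 18.2% of the list, where 16.8% of all genes tested were called in either direction and 8.23% lower. The list is not complete: Ddi2 was counted with the shuttle receptors below and was not called (log2 fold change 0.05; edgeR adjusted p = 0.607). Nfe2l1 had 228 and 224 CPM in control and 203 and 204 CPM in conditioned medium, tight in each group and without overlap (log2 fold change -0.15 ± 0.04; edgeR adjusted p = 0.0240). Vcp, the ATPase that pulls NFE2L1 out of the endoplasmic reticulum, had 475 and 470 CPM against 431 and 422 CPM (log2 fold change -0.15 ± 0.04; edgeR adjusted p = 0.0176). Nfe2l2, the antioxidant factor, had 334 and 333 CPM against 315 and 321 CPM and was not called (edgeR adjusted p = 0.290). Nfe2l1 and Vcp each lost the call without conditioned medium library 1 or 2 (adjusted p = 0.254 and 0.247 for Nfe2l1, 0.202 and 0.319 for Vcp), and Nfe2l1 also in DESeq2 (adjusted p = 0.146).

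Among 7 proteins that sit on the proteasome, edgeR called 1 lower and 0 higher. That is 14.3% called, against 16.8% of all genes tested in either direction and 8.23% lower. Txnl1, a thioredoxin-like protein bound to the cap, had 80.5 and 75.1 CPM in control and 69.8 and 68.8 CPM in conditioned medium (log2 fold change -0.17 ± 0.06; edgeR adjusted p = 0.0451), and 8 of its 15 alternatives ended the call, among them leaving out control library 1 (adjusted p = 0.229), conditioned medium library 1 (0.215) or conditioned medium library 2 (0.312). Of 7 shuttle receptors that carry ubiquitinated proteins to the proteasome, edgeR, DESeq2 and limma-voom called 0, with 1 at an unadjusted p under 0.05 in edgeR, Ubqln2 (102 and 111 CPM against 97.6 and 97.3 CPM; edgeR adjusted p = 0.115). Without control library 1 Ubqln2 was called lower (adjusted p = 0.00981).

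Some members have near-identical copies in the genome, from which reads cannot always be separated. By alignment of their transcripts to all GENCODE M21 transcripts, 9 of the 34 matched another, non-overlapping gene at 95% identity or more over at least 200 bases, nearly all of these copies being processed pseudogenes: Psma2, Psma3, Psma4, Psma5, Psmb3, Psmb5, Psmc1, Psmd2 and Psmd11. The closest copy of Psmb5, Gm3375, matched over 796 bases at 98.9% identity, so its rise carries this uncertainty too. No copy of Psmc3 or Psmd14 was found by this measure. Exon overlaps with genes on the opposite strand were found for Psma4, Psma5, Psmb7, Psmc3, Psmd1, Psmd3, Psmd9 and Psmd13, and their reads could not be assigned by strand.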

How the data were processed

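The authors deposited raw counts per gene, with 1 column for each of 4 libraries, per the file headers. Rows carry numbers that were matched as Entrez identifiers. Libraries were made with a TruSeq RNA kit, per the labels' protocols. That kit is known not to mark strand. STAR 2.5.2b, featureCounts, Subread 1.4.6-p1 and mm10 are named, per the submitters' processing notes; no source used states the settings or which annotation release was counted. Symbols and positions came from RefSeq (GRCm38.p6, 25275 of 27179 rows matched), transcript lengths from GENCODE M21 (mean of the protein-coding transcripts with a RefSeq match).

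Testing used edgeR 4.0.16 (R 4.3.3): filterByExpr (minimum count 10, total 15), TMM scaling, quasi-likelihood test of conditioned medium against control without a block, two-sided, Benjamini-Hochberg adjustment over 13897 genes, call at an adjusted p under 0.05. The biological coefficient of variation was 3.58%, with 2 residual degrees of freedom. CPM values are TMM-scaled, except the sums over marker lists, which were scaled to library totals alone. An SE was obtained by dividing the size of the log2 fold change by the root of its F statistic, and 95% intervals use the fit's total degrees of freedom. Depth ranged from 13815695 to 18005840 counts, where 3 counts equal 0.167 to 0.217 CPM (counting error only).

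Members and lists were chosen with earlier results of these data known. Of the listed genes, Paaf1 matched no row, and 1 further list of genes is not reported here. Genes given in full are, per class or list, up to 3 called genes, by size of log2 fold change, or else the gene with the smallest p, plus fixed genes (Psmb5 to Psmb10, Nfe2l1, Nfe2l2, Psme1, Psme2, Psmf1, Pomp, Adrm1 and Sem1). Psma1, Psma7, Psmc1, Psmd2, Psmd4, Psmd7, Psmd9, Psmd10, Psmd11, Emcn, Mir686 and Slc39a13 were added after their values were seen. Alternatives were other scalings (RLE, upper quartile, library totals), other filters (none, or 2 libraries at 1 CPM or more), a robust spread, a block on replicate number, DESeq2 1.42.0, limma-voom (limma 3.58.1), thinned counts and each library left out. The procedure was tested on simulated data. Copies were sought with blastn 2.17.0.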

Additional observations from a re-analysis of the deposited data

How the results depend on the processing

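With 1 library left out in turn, the members called higher numbered 0 to 2 and those called lower 0 to 8, and the median log2 fold change ran from -0.11 to 0.019 for the core, from -0.12 to -0.034 for the base and from -0.09 to -0.04 for the lid. With all 4 libraries, DESeq2 called 0 higher and 0 lower, and 1 was lower under upper-quartile scaling, library totals, no filter or thinned counts. The robust spread called 3 lower. Over the alternatives that kept all libraries the medians stayed within -0.05 to -0.03 (core), -0.11 to -0.09 (base) and -0.07 to -0.05 (lid). Genes not called with all 4 libraries changed sign when single libraries were left out: Psmb7 (-0.10 to 0.037), Psmb8 (-0.10 to 0.13), Psmb9 (-0.57 to 0.050), Adrm1 (-0.10 to 0.053), Sem1 (-0.17 to 0.14), Pomp (-0.013 to 0.18) and Cd68 (-0.018 to 0.16, called without control library 2). Of the values of named genes under alternatives, 383 kept direction and side of the threshold, 35 lost a call, 7 gained one and 10 changed sign. With a replicate block, Psmb5 was at 0.29 (adjusted p = 0.00296), the same 3 members were called, and 2671 genes were called against 2330; the one named gene that changed its call was Psme1 (adjusted p = 0.0494). Same-numbered libraries did not deviate together (correlation -0.03 over 11204 genes), so the numbers were not taken as pairs. Fits without 1 library assume that the lone library varies like the other group. Among the 34 members, the SE was largest for Psmd10 (0.13), which had the lowest counts.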

Other observations

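Of the near-identical copies of proteasome genes, 2 had rows of their own in the table. A730017L22Rik, a processed transcript that matched Psmd11 over 1501 bases at 97.9% identity, had 77 and 76 counts in control and 51 and 61 counts in conditioned medium, or 5.22 and 5.20 CPM against 3.68 and 3.38 CPM. Its groups did not overlap, and its log2 fold change of -0.57 ± 0.19 narrowly missed the threshold (edgeR adjusted p = 0.0511), while Psmd11 itself was at 0.06. Gm609, which matched Psma3 over 327 bases at 96.3% identity, had 7 and 3 counts against 1 and 1 and was below the filter.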
